A study of Homo sapiens with 9 samples.

Results

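The unfolded protein response and the integrated stress response were described here through 35 genes, of 58735 in the count table, chosen by name. The list held 19 genes of the ATF4 arm (amino acid and stress genes) and 16 of the endoplasmic reticulum (ER) chaperone arm. All 35 had enough reads to be tested. RNA came from HEK293A cells, a flat-growing derivative of the human embryonic kidney line HEK293, labelled as p65 knockout. Cells received a plasmid for p65 WT, a plasmid for p65 2CS or vector. After 24 h every culture was given TNF at 20 ng/mL for 2 h, so that knockout background, transfection and TNF were common to the 3 groups of 3 libraries and no library shows the state without TNF. The series title refers to p65 palmitoylation, and the labels do not spell out 2CS. Nor do they give the number of knockout clones, the promoter of the plasmids, the share of cells that took up plasmid, or whether replicates are separate cultures. The p-values therefore measure the spread between these libraries, which may be technical.

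Cells that lack amino acids, lose heme, sense double-stranded RNA or accumulate unfolded proteins in the ER phosphorylate the translation factor eIF2. General translation then slows while the transcription factor ATF4 is made, and ATF4 turns on amino acid enzymes and transporters, the factor DDIT3 (CHOP) and, as feedback, a subunit of the phosphatase that removes the mark from eIF2. A separate branch runs through the ER sensors ERN1 (IRE1) and ATF6, which produce active XBP1 and ATF6 fragments that raise chaperones and degradation factors of the ER. Much of this control is exerted on translation, on RNA splicing or on protein cleavage, none of which gene counts measure.

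Library totals ran from 15989601 to 25068515 counts, and 18195 genes were tested. Levels are given as CPM, the count scaled to a common library size with TMM factors, differences as log2 folds ± standard error, and a gene is called where the edgeR adjusted p over all tested genes is under 0.05. RELA, which encodes p65, lay between 65.9 and 69.0 CPM with vector, 8037 and 9922 CPM with p65 WT, and 24036 and 26771 CPM with p65 2CS. These counts do not separate plasmid from chromosomal transcripts. Between p65 2CS and p65 WT, the form of p65 and the higher level of its transcript cannot be told apart. Markers of nephron and HEK293 lineage summed to between 1022 and 1214 CPM per library, with group means of 829 to 942 CPM for KRT8, so that KRT8 made up most of the sum. Some smaller members were higher with p65 WT. The nephron progenitor factor SIX2 averaged 9.56, 39.7 and 13.6 CPM in vector, p65 WT and p65 2CS libraries. In that order PAX8 averaged 0.139, 4.28 and 0.657 CPM and SALL1 9.22, 15.1 and 13.7 CPM. Others were not higher: LHX1 averaged 7.64, 6.26 and 6.68 CPM, PAX2 1.91, 1.78 and 1.75 CPM and KRT18 203, 191 and 179 CPM. The tubule cadherin CDH16 averaged at most 0.126 CPM. Neural markers summed to between 889 and 1009 CPM, nearly all of it NEFL. Leukocyte markers summed to at most 4.0 CPM, with PTPRC, the pan-leukocyte antigen, at 0 in vector and p65 WT libraries. Fibroblast and endothelial markers summed to between 55.4 and 61.0 CPM with vector, 92.6 and 93.9 with p65 WT and 61.2 and 63.2 with p65 2CS, with the endothelial genes CDH5 and VWF carrying most of the difference. Their part in the results below was not tested. The share of counts in mitochondrially encoded genes was 4.34% to 5.05%. In such bulk libraries, fewer cells with a transcript and less transcript per cell cannot be told apart.

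Set against vector, p65 WT went with a mostly lower ATF4 arm and, in the ER chaperone arm, with more rises than falls. In the ATF4 arm 14 of 19 genes fell and 4 rose, where 12.5% of all tested genes fell and 16.4% rose. The median log2 fold over the arm was -0.34, against -0.02 over all tested genes. The ER chaperone arm had 5 rises (31.2%) and 1 fall (6.25%) among 16 genes and a median of 0.02. Counted in either direction, 28.8% of all tested genes were called. Libraries of the 2 groups did not overlap for 4 higher and 15 lower genes of the ATF4 arm and for 5 higher and 4 lower genes of the ER chaperone arm, against 20.3% higher and 20.1% lower over the table. Without p65 WT replicate 6 the 4 rises of the ATF4 arm became 2, and they were also 2 with libraries scaled by their totals alone. That scaling gave the ER chaperone arm 4 rises and 5 falls. Over the whole table it turned 2976 rises and 2268 falls into 2561 and 3642.

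With p65 2CS in place of vector, both arms were on the low side. In the ATF4 arm 11 of 19 fell and 2 rose, beside 11.4% and 12.1% of all tested genes, and the median log2 fold was -0.20 against -0.0018 over all tested genes. In the ER chaperone arm 6 of 16 fell and 0 rose, with a median of -0.13. In either direction 23.4% of all tested genes were called. Groups did not overlap for 2 higher and 13 lower genes of the ATF4 arm and for 0 higher and 7 lower of the ER chaperone arm, against 18.5% and 18.1% of the table.

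Between the 2 forms of p65, more genes of the ATF4 arm were higher with p65 2CS than lower, and more of the ER chaperone arm were lower than higher. In the ATF4 arm 9 of 19 genes were higher with p65 2CS than with p65 WT and 5 were lower, where 13.4% of all tested genes were higher and 17.9% lower. In the ER chaperone arm 1 of 16 was higher and 8 were lower, and the medians were 0.14 for the ATF4 arm, -0.13 for the ER chaperone arm and 0.0030 over all tested genes. In either direction 31.2% of all tested genes were called. Groups did not overlap for 9 higher and 6 lower genes of the ATF4 arm and for 1 higher and 9 lower of the ER chaperone arm, against 18.9% and 21.8% of the table. Without p65 WT replicate 6, or with libraries scaled by their totals alone, the 5 lower genes of the ATF4 arm became 3. Over the whole table the scaling by totals turned 2431 higher and 3254 lower genes into 3098 and 2820. The 3 comparisons share their libraries pairwise, so that none is independent of the other two.

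**Figure D1:**
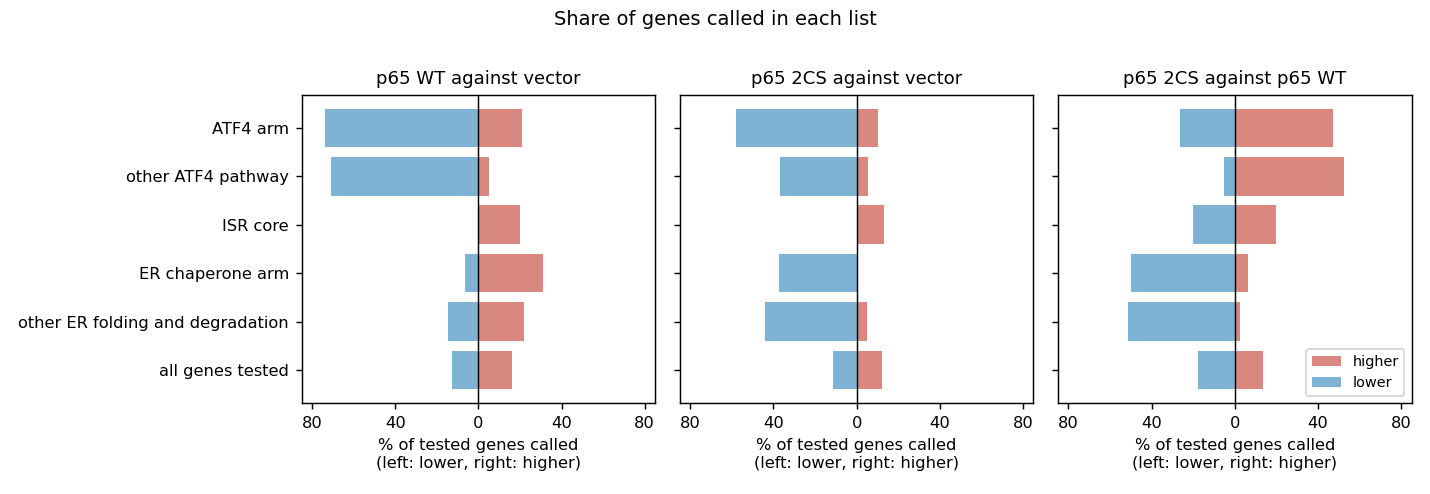
Percentage of the tested genes of each list that was called higher (right of 0) or lower (left of 0) in each of the 3 comparisons, with all tested genes at the bottom. ISR core stands for the eIF2 kinases, eIF2, eIF2B and their regulators. The ATF4 arm reached 73.7% lower with p65 WT, and the ER chaperone arm 50% lower with p65 2CS against p65 WT.

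Changes of at least 1.5-fold were found in the ATF4 arm alone among the 35 genes. With p65 WT 5 of its genes fell that far, where 0.918% of all tested genes did, and 2 rose that far, where 8.40% did. With p65 2CS against vector 2 fell that far (0.725% of all tested genes) and 1 rose (3.42%). Between the 2 forms none of the 35 reached 1.5-fold in either direction, where 1.43% of all tested genes did so upward and 6.74% downward. The summed level of the 19 genes was 3112 to 3208 CPM in vector libraries, 2985 to 3055 in those of p65 WT and 3043 to 3081 in those of p65 2CS. Abundant members with small changes make up much of that sum. With p65 WT, rises such as that of PPP1R15A (158 to 317 CPM) also offset falls such as that of SLC3A2 (462 to 353 CPM).

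The transcription factors of the ATF4 arm were all lower with p65 WT, where 12.5% of all tested genes were lower. ATF4 itself (chromosome 22, 39519695 to 39522685, plus strand of GRCh38) stood at 453, 447 and 437 CPM in the vector libraries, 409, 408 and 416 under p65 WT and 459, 457 and 444 under p65 2CS. The p65 WT libraries lay below the other 6, and the p65 2CS libraries overlapped those with vector. The log2 fold was -0.12 ± 0.026 (adjusted p = 0.00057) for p65 WT against vector, 0.03 ± 0.026 (adjusted p = 0.54) for p65 2CS against vector and 0.14 ± 0.026 (adjusted p = 3.7e-05) between the 2 forms. DDIT3 (chromosome 12, 57516588 to 57521737, minus strand), a stress factor linked to cell death, had 15.1, 12.9 and 13.3 CPM in the vector libraries, 9.53, 10.1 and 9.89 under p65 WT and 12.7, 12.8 and 11.8 under p65 2CS. No groups overlapped, with the lowest values in p65 WT. The fall with p65 WT was 1.40-fold, a log2 fold of -0.48 ± 0.10 (adjusted p = 0.00028), and the level with p65 2CS was 1.26-fold above that with p65 WT (0.34 ± 0.10, adjusted p = 0.01). Against vector, p65 2CS gave a log2 fold of -0.14 ± 0.10 (adjusted p = 0.31), which did not pass the test.

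CEBPB (chromosome 20, 50190734 to 50192689, plus strand), a leucine zipper factor that pairs with ATF4 and also acts in inflammation, had 50.7, 50.9 and 48.4 CPM in the vector libraries, 25.6, 24.3 and 28.4 under p65 WT and 32.6, 28.7 and 31.3 under p65 2CS. Every vector library lay above every p65 library. The level was 1.91-fold lower with p65 WT (-0.94 ± 0.066, adjusted p = 2.1e-15) and 1.63-fold lower with p65 2CS (-0.70 ± 0.062, adjusted p = 1e-11). Between the forms CEBPB was 1.18-fold higher with p65 2CS (0.23 ± 0.069, adjusted p = 0.0075), no longer called without p65 WT replicate 5 (adjusted p = 0.064). CEBPG, a partner of ATF4 and other leucine zipper proteins, went from 159.9 ± 3.42 CPM (SD, n = 3) with vector to 126 ± 4.89 under p65 WT and 137 ± 3.46 under p65 2CS. Its log2 folds were -0.34 ± 0.036, -0.22 ± 0.034 and, between the forms, 0.12 ± 0.036. The last of these had adjusted p = 0.0069, and 0.080 or 0.053 without p65 WT replicate 4 or p65 2CS replicate 8.

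Of 4 stress effectors 3 fell with p65 WT, where 12.5% of all tested genes fell. TRIB3 (chromosome 20, 362835 to 397559, plus strand), a pseudokinase that feeds back on ATF4 and DDIT3, had 30.8, 32.1 and 33.3 CPM in the vector libraries, 12.7, 14.4 and 15.9 under p65 WT and 20.0, 20.1 and 18.7 under p65 2CS. The 3 groups did not overlap, with vector highest and p65 WT lowest. TRIB3 was 2.23-fold lower with p65 WT (-1.16 ± 0.081, adjusted p = 1.6e-15) and 1.64-fold lower with p65 2CS (-0.71 ± 0.074, adjusted p = 8.6e-10). It was 1.36-fold higher with p65 2CS than with p65 WT (0.45 ± 0.085, adjusted p = 5e-05).

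DDIT4 (REDD1; chromosome 10, 72273920 to 72276036, plus strand), an inhibitor of the growth kinase mTORC1, had 24.1, 27.6 and 26.6 CPM in the vector libraries, 15.1, 16.3 and 18.6 under p65 WT and 18.7, 19.8 and 19.9 under p65 2CS. All p65 libraries lay under all vector libraries. The log2 folds were -0.65 ± 0.082 (adjusted p = 2.5e-08) for p65 WT and -0.42 ± 0.078 (adjusted p = 6.2e-05) for p65 2CS. The difference between the forms, 0.22 ± 0.085 (adjusted p = 0.039), was no longer called in 7 of the 17 alternatives run, among them leaving out replicate 4 or 5 of p65 WT, or 8 or 9 of p65 2CS, with adjusted p up to 0.22. CHAC1, which degrades glutathione, was low throughout, at 7.09 ± 0.151 CPM with vector, 5.13 ± 1.07 under p65 WT and 6.13 ± 0.614 under p65 2CS. Its log2 fold with p65 WT was -0.47 ± 0.15 (adjusted p = 0.017), and it was not called without p65 WT replicate 4 (adjusted p = 0.12) or 6 (0.068). SESN2, a leucine sensor upstream of mTORC1, went the other way by a small margin, from 88.8 ± 1.76 to 96.8 ± 3.86 CPM with p65 WT (0.12 ± 0.041, adjusted p = 0.017). Between the forms SESN2 was lower with p65 2CS (-0.13 ± 0.040, adjusted p = 0.013), not called when p65 WT replicate 6 or p65 2CS replicate 9 was left out or with scaling by totals alone, with adjusted p of 0.085, 0.061 and 0.054. The call against vector was lost without p65 WT replicate 6 or vector replicate 1 and with scaling by totals alone, with adjusted p of 0.11, 0.082 and 0.12.

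The enzymes of serine, one-carbon and asparagine synthesis gave 4 falls and 1 rise with p65 WT, where 12.5% of all tested genes fell and 16.4% rose. ASNS (chromosome 7, 97852118 to 97872542, minus strand), which makes asparagine, had 5.87, 6.41 and 6.14 CPM in the vector libraries, 4.48, 3.67 and 3.83 under p65 WT and 3.96, 5.09 and 4.48 under p65 2CS. Vector libraries were above all p65 libraries, and the 2 forms overlapped. The log2 folds were -0.62 ± 0.16 (adjusted p = 0.0029) under p65 WT and -0.43 ± 0.16 (adjusted p = 0.037) under p65 2CS, the latter lost in 7 of 17 alternatives with adjusted p up to 0.15. Those include leaving out any vector library, p65 2CS replicate 7 or p65 2CS replicate 9. PSAT1 and PHGDH, both of the serine pathway, went from 108 ± 5.27 to 76.7 ± 3.92 and from 258 ± 5.41 to 228 ± 6.92 CPM with p65 WT. With p65 2CS they stood at 88.9 ± 1.23 and 235 ± 3.81 CPM. The mitochondrial folate enzyme MTHFD2 fell from 145 ± 2.25 to 121 ± 2.76 CPM under p65 WT and 125 ± 3.03 under p65 2CS. The log2 folds with p65 WT were -0.50 ± 0.043 for PSAT1, -0.18 ± 0.030 for PHGDH and -0.26 ± 0.035 for MTHFD2, and with p65 2CS -0.28 ± 0.041, -0.13 ± 0.030 and -0.21 ± 0.034 in that order, all called. PSAT1 was the only gene of these 5 called between the forms (0.21 ± 0.044, adjusted p = 0.00014), where 31.2% of all tested genes were called. SHMT2, which hands serine carbon to the mitochondrial folate pool, was 1.07-fold higher with p65 WT (0.09 ± 0.030, adjusted p = 0.014), no longer called without p65 WT replicate 6 or vector replicate 2 (adjusted p of 0.18 and 0.058) and with scaling by totals alone (0.19).

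Of 4 amino acid transporters 3 fell and 0 rose with p65 WT, where 12.5% of all tested genes fell and 16.4% rose. With p65 2CS against vector 3 also fell and 0 rose, against 11.4% and 12.1%. Between the forms they did not move alike, with 2 higher with p65 2CS and 2 lower, against 13.4% and 17.9%. SLC7A11 (chromosome 4, 138164097 to 138242349, minus strand), the light chain of the cystine importer, had 27.6, 28.0 and 26.5 CPM in the vector libraries, 12.4, 15.1 and 12.1 under p65 WT and 17.5, 17.7 and 20.2 under p65 2CS. The groups did not overlap, with vector highest and p65 WT lowest. SLC7A11 was 2.08-fold lower with p65 WT (-1.05 ± 0.087, adjusted p = 2.5e-13) and 1.49-fold lower with p65 2CS (-0.57 ± 0.080, adjusted p = 5.6e-07). The difference between the forms was 0.48 ± 0.090 (adjusted p = 4e-05).

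SLC3A2, the heavy chain that SLC7A11 and SLC7A5 share, had another pattern and was singled out after its values were seen. It had 486, 454 and 446 CPM in the vector libraries, 356, 344 and 360.4 under p65 WT and 494, 483 and 464 under p65 2CS. Only the p65 WT libraries were low, and those with p65 2CS overlapped the vector libraries. The log2 fold was -0.39 ± 0.030 (adjusted p = 5.6e-14) with p65 WT, 0.06 ± 0.029 (adjusted p = 0.17) with p65 2CS and 0.44 ± 0.030 (adjusted p = 1.1e-15) between the forms. The leucine transporter SLC7A5 went from 294 ± 4.39 to 280.0 ± 4.39 CPM with p65 WT, which was not called (-0.07 ± 0.028, adjusted p = 0.063), and to 264 ± 4.13 with p65 2CS, which was (-0.15 ± 0.028, adjusted p = 4.7e-05). The arginine transporter SLC7A1 fell from 492 ± 9.72 to 452 ± 7.12 and 418 ± 10.9 CPM. Between the forms SLC7A11 and SLC3A2 were higher with p65 2CS and SLC7A5 and SLC7A1 lower, by log2 folds of -0.09 and -0.11. The SLC7A5 call was lost when p65 WT replicate 6, or 8 of p65 2CS, was left out (adjusted p of 0.075 and 0.097) and with scaling by totals alone (0.12).

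Both regulatory subunits of the eIF2 phosphatase rose with either form of p65, against the direction of most of the arm. Of all tested genes 16.4% rose with p65 WT and 12.1% with p65 2CS. PPP1R15A (GADD34; chromosome 19, 48872392 to 48876057, plus strand), the stress-induced subunit, had 165, 157 and 152 CPM in the vector libraries, 325, 307 and 320.3 under p65 WT and 251, 251 and 223 under p65 2CS. PPP1R15B (CReP; chromosome 1, 204403387 to 204411791, minus strand), usually described as the constitutive subunit, had 92.1, 91.4 and 96.7 CPM in the vector libraries, 154, 154 and 154 under p65 WT and 123, 123 and 133 under p65 2CS. For each gene the 3 groups were apart, with p65 WT highest and vector lowest. PPP1R15A rose 2.01-fold with p65 WT (1.01 ± 0.037, adjusted p = 4.5e-25) and 1.53-fold with p65 2CS (0.62 ± 0.037, adjusted p = 6.1e-17). PPP1R15B rose 1.65-fold (0.72 ± 0.037, adjusted p = 9.9e-20) and 1.35-fold (0.43 ± 0.037, adjusted p = 5.2e-12). Between the forms, where 17.9% of all tested genes were lower with p65 2CS, both were lower with it. The differences were 1.31-fold for PPP1R15A (-0.39 ± 0.035, adjusted p = 4.6e-12) and 1.22-fold for PPP1R15B (-0.29 ± 0.036, adjusted p = 1.6e-08). All of these calls held in each of the 17 alternatives.

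**Figure D2:**
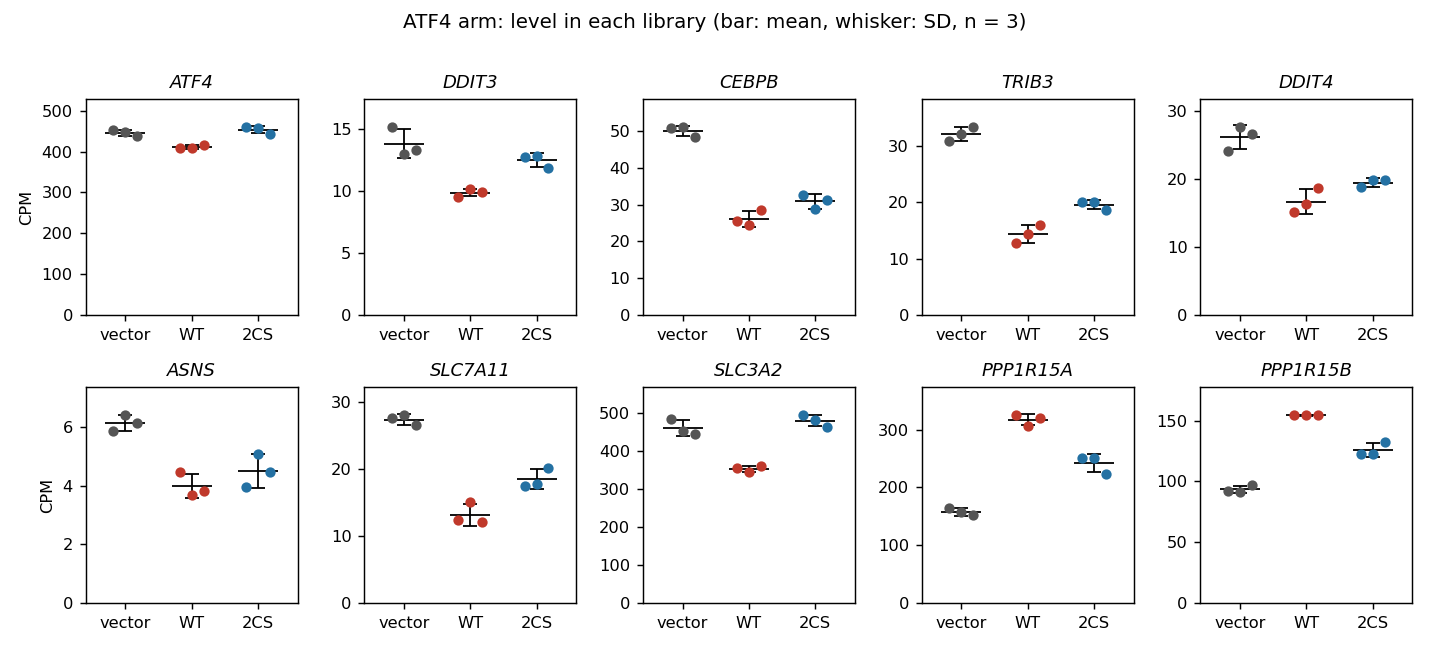
CPM in each of the 9 libraries for 10 genes of the ATF4 arm, each axis starting at 0, with points for libraries, a bar for the group mean and whiskers for the SD. TRIB3, CEBPB, DDIT4 and SLC7A11 are lower in all p65 libraries than in all vector libraries, while PPP1R15A and PPP1R15B are higher in all of them.

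Other genes of the ATF4 pathway mostly fell with p65 WT. Of 39 listed (transporters, enzymes, tRNA synthetases and stress genes), 38 were tested, FGF21 being too low. With p65 WT 27 fell (71.1%, against 12.5% of all tested genes) and 2 rose (5.26%, against 16.4%), with a median log2 fold of -0.25. With p65 2CS against vector 14 fell (36.8%, against 11.4%) and 2 rose (5.26%, against 12.1%), at a median of -0.08. Between the forms 20 were higher with p65 2CS (52.6%, against 13.4%) and 2 lower (5.26%, against 17.9%), at a median of 0.15. The 2 rises with p65 WT became 1 without vector replicate 2 or p65 WT replicate 6, and those with p65 2CS became 1 without p65 2CS replicate 7. The 2 lower genes between the forms became 1 when replicate 4 or 6 of p65 WT, or 7 or 9 of p65 2CS, was left out. The largest called changes with p65 WT were falls. NUPR1, a small stress-induced nuclear protein, went from 7.68 to 4.23 CPM (-0.87 ± 0.16, adjusted p = 4.5e-05). ATF3, a stress-induced repressor, went from 329 to 194 CPM (-0.76 ± 0.034, adjusted p = 4.9e-22), and the lipoprotein receptor VLDLR from 10.9 to 6.72 CPM (-0.70 ± 0.13, adjusted p = 2.6e-05).

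With p65 2CS against vector the largest called changes in that list were those of CBS, GDF15 and the glycine transporter SLC6A9. CBS, which makes cystathionine from homocysteine, had 4.16, 4.45 and 3.37 CPM in the vector libraries, 3.41, 3.36 and 16.3 under p65 WT and 19.9, 4.89 and 6.48 under p65 2CS. A single library in each p65 group, replicate 6 of p65 WT and replicate 7 of p65 2CS, stood far above the rest. The log2 fold with p65 2CS was 1.33 ± 0.37 (adjusted p = 0.0059), and without p65 2CS replicate 7 it was 0.49 ± 0.34 (adjusted p = 0.36), a 1.40-fold difference that was not called. With all libraries, limma-voom (adjusted p = 0.072) and the DESeq2 Wald test (0.23) did not call it. GDF15, a secreted stress hormone, fell from 3.94 to 2.46 CPM (-0.66 ± 0.20, adjusted p = 0.01), and SLC6A9 from 17.7 to 12.3 CPM (-0.54 ± 0.10, adjusted p = 0.00013). The GDF15 call was lost when vector replicate 1 or 3, or replicate 9 of p65 2CS, was left out (adjusted p of 0.050, 0.056 and 0.068). With p65 WT GDF15 rose to 5.96 CPM (0.60 ± 0.18, adjusted p = 0.0092), not called when vector replicate 2 or p65 WT replicate 6 was left out (0.079 and 0.069), and was 2.40-fold lower with p65 2CS than with p65 WT (-1.26 ± 0.19, adjusted p = 9.4e-07). Between the forms CTH, which releases cysteine from cystathionine, and the amino acid transporter SLC43A1 were higher with p65 2CS, with log2 folds of 0.51 ± 0.12 and 0.40 ± 0.11. Of 12 cytosolic aminoacyl-tRNA synthetases, which charge tRNAs, 9 fell and 1 rose with p65 WT, where 12.5% and 16.4% of all tested genes did. With p65 2CS against vector 1 fell and 1 rose, which is near the 11.4% and 12.1% of all tested genes. Between the forms 8 were higher with p65 2CS and 1 lower, against 13.4% and 17.9%.

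Upstream of ATF4, genes for the eIF2 kinases, eIF2, its exchange factor eIF2B and their regulators rose at a share near that of all genes. Of 15 tested, 3 (20%, against 16.4% of all tested genes) rose and 0 fell (against 12.5%) with p65 WT, at a median log2 fold of -0.01. EIF2AK4 (GCN2), the kinase that senses uncharged tRNA, rose from 68.4 to 92.4 CPM (0.43 ± 0.044, adjusted p = 6.8e-11). The eIF2B subunit gene EIF2B2 rose from 30.7 to 41.0 CPM (0.42 ± 0.065, adjusted p = 1.5e-06), and EIF2S3, the eIF2 gamma subunit, from 897 to 967 CPM (0.11 ± 0.023, adjusted p = 0.00022). With scaling by totals alone there were 3 rises and 4 falls, and there was 1 fall when replicate 3 of vector, 4 or 5 of p65 WT, or 9 of p65 2CS was left out. With p65 2CS 2 rose (13.3%, against 12.1% of all tested genes) and 0 fell (against 11.4%), and the rises were EIF2B2 (36.2 CPM; 0.23 ± 0.064, adjusted p = 0.0063) and the GCN2 activator GCN1 (378 CPM; 0.08 ± 0.028, adjusted p = 0.037). These 2 rises became 1 without vector replicate 1 or 2 or p65 2CS replicate 9, and 0 without p65 2CS replicate 7. Leaving out any vector library, or replicate 7 or 9 of p65 2CS, lost the GCN1 call (adjusted p of 0.064 to 0.17). Scaling by totals alone lost it too (0.093). Between the forms 3 were higher with p65 2CS, or 1 without p65 2CS replicate 7, and 3 lower (20% each way, against 13.4% and 17.9% of all tested genes). EIF2AK4 was lower (-0.34 ± 0.043, adjusted p = 2.5e-08), as was EIF2B2 (-0.19 ± 0.063, adjusted p = 0.021). The EIF2B2 difference was not called when replicate 4 or 6 of p65 WT, or 8 of p65 2CS, was left out. EIF2B3 was higher (0.20 ± 0.061, adjusted p = 0.0085), not called without p65 2CS replicate 7 (adjusted p = 0.058). EIF2AK3 (PERK), the kinase of the ER, was not called in any comparison and stood at 32.3, 32.7 and 29.4 CPM.

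**Figure D3:**
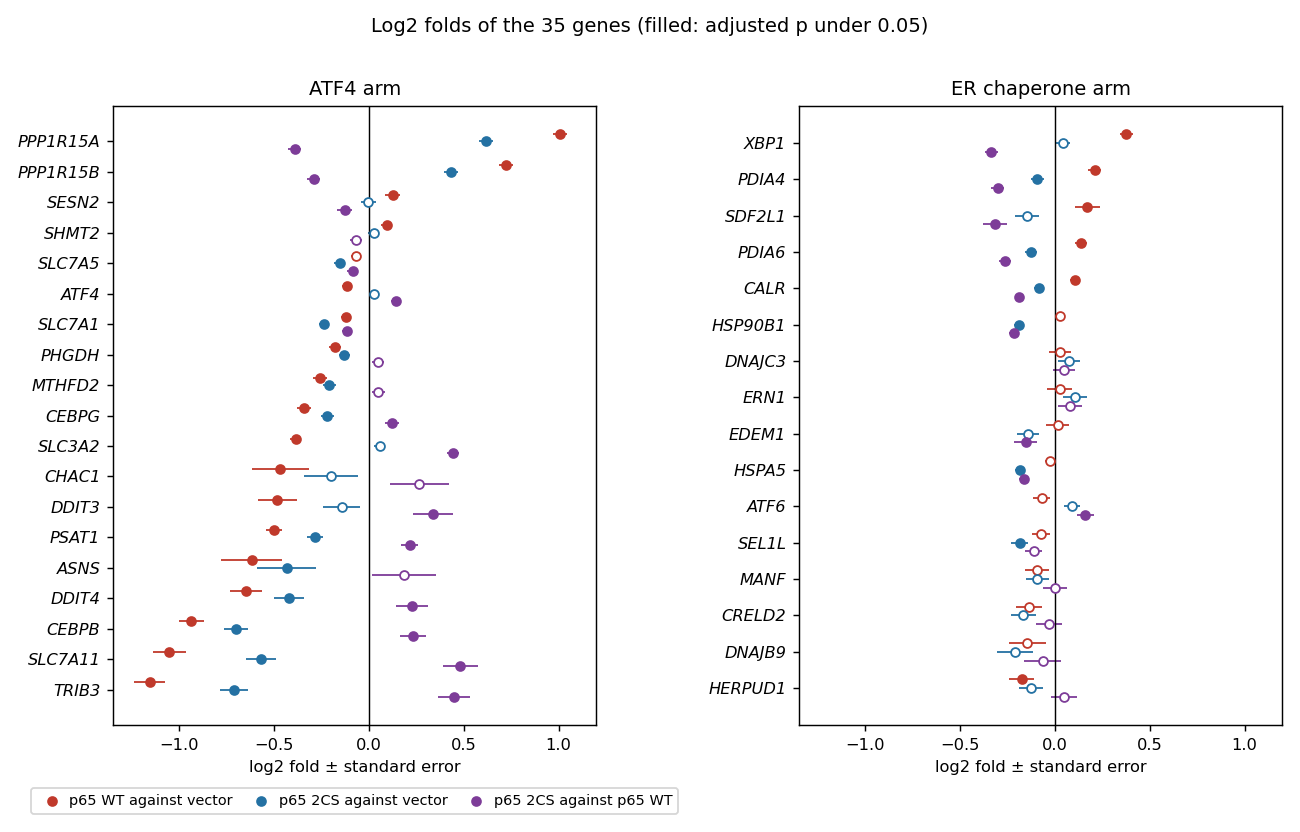
Log2 fold ± standard error of the 35 genes in the 3 comparisons, sorted within each arm by p65 WT against vector, with filled points for an adjusted p under 0.05. PPP1R15A and PPP1R15B stand at the top of the ATF4 arm and TRIB3 and SLC7A11 at the bottom, while every gene of the ER chaperone arm lies between -0.33 and 0.38.

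The 2 arms are known to be driven through different promoter sequences, and these were looked for in the 250 bases before each RefSeq start (GRCh38.p14), on both strands. Windows were found for 17 genes of the ATF4 arm and all 16 of the ER chaperone arm, and SLC7A11 and SHMT2 were not matched. The ER stress element, searched as CCAAT and CCACG with 9 bases between them and bound by ATF6 with the factor NF-Y, was in windows of 6 ER chaperone genes (CALR, CRELD2, HSP90B1, HSPA5, PDIA6 and XBP1) and 0 of the ATF4 arm, where 0.074% of all 35116 windows held it. The related element of ATTGG and CCACG with 1 base between them was in HERPUD1 and SDF2L1, and in 0.0513% of all windows. The C/EBP-ATF response element, searched as TGATGNAA, was in 4 genes of the ATF4 arm (ASNS, CEBPG, CHAC1 and PPP1R15B) and in HERPUD1 of the other, against 3.14% of all windows. A simple NF-kB-like pattern, GGG and TTTCC with any 2 bases between them, was in PPP1R15B and PDIA4, against 1.73% of all windows. This pattern is not the full NF-kB consensus, and other forms of the site were not searched for. The unfolded protein response element TGACGTGG was in 0 of the 33 matched genes, against 0.612% of all windows. Genes can have several windows, and a match describes letters, not binding. The windows printed next, 5′ to 3′ along the gene with its strand as + or -, are cut to the part outside annotated exons, with the matched letters in capitals, written as their reverse complement where the match is on the other strand. They show the element shared by ER chaperone genes (HSPA5, CALR, PDIA6, XBP1) and the gene with elements of both arms (HERPUD1). Also shown are 2 ATF4 arm genes that moved in opposite directions, CEBPG and PPP1R15B. The second match in PPP1R15B is the NF-kB-like pattern.
HSPA5 chr9:125241344-125241593 -: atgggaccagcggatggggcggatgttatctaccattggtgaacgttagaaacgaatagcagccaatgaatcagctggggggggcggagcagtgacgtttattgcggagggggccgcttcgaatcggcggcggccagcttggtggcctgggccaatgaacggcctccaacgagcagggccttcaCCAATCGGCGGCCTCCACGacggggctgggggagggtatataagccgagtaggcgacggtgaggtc
CALR chr19:12938359-12938577 +: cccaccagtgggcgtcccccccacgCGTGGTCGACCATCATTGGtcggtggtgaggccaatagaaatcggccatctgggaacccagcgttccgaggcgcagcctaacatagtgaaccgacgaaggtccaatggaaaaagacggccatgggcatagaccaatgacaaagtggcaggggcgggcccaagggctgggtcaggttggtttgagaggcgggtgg
PDIA6 chr2:10812845-10813035 -: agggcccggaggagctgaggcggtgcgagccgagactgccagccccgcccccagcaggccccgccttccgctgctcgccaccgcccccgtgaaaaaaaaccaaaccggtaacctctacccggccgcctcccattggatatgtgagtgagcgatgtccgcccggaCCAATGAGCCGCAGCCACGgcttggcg
XBP1 chr22:28800598-28800682 -: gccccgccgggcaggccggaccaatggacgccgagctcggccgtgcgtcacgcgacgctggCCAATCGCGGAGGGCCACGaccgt
HERPUD1 chr16:56931892-56932047 +: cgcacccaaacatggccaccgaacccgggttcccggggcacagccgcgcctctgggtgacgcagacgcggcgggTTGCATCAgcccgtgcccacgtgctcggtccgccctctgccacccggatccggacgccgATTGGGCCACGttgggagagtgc
CEBPG chr19:33373896-33374112 +: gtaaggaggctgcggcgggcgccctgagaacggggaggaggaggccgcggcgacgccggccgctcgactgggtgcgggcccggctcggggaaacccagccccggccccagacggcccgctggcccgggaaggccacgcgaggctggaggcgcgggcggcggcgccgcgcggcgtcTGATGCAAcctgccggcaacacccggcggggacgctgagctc
PPP1R15B chr1:204411818-204412067 -: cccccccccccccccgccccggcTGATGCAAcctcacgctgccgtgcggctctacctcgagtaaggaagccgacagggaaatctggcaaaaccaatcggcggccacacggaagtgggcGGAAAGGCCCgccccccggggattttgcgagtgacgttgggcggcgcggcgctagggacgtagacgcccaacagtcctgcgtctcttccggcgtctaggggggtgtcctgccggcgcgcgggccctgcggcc

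Of the ER sensors, neither ERN1 nor ATF6 was called against vector, and XBP1 rose with p65 WT. XBP1 (chromosome 22, 28794555 to 28800597, minus strand), whose RNA is cut by IRE1 to yield the active factor, had 131, 125 and 128 CPM in the vector libraries, 159.8, 168 and 170.4 under p65 WT and 129, 133 and 132 under p65 2CS. The p65 WT libraries were above the other 6, which overlapped each other. The log2 fold was 0.38 ± 0.035 (adjusted p = 6.8e-12) with p65 WT, 0.04 ± 0.035 (adjusted p = 0.43) with p65 2CS and -0.33 ± 0.034 (adjusted p = 1.9e-10) between the forms. The counts cover spliced and unspliced XBP1 together.

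ERN1 (chromosome 17, 64039142 to 64130819, minus strand), the IRE1 sensor, had 32.2, 34.3 and 34.2 CPM in the vector libraries, 33.7, 33.4 and 35.4 under p65 WT and 38.8, 36.0 and 33.6 under p65 2CS. The groups overlapped, and the log2 folds were 0.02 ± 0.065 with p65 WT, 0.11 ± 0.062 with p65 2CS and 0.08 ± 0.064 between the forms. ATF6 (chromosome 1, 161766294 to 161964070, plus strand), a membrane-bound factor released by cleavage, had 71.8, 74.2 and 79.4 CPM in the vector libraries, 70.9, 71.0 and 72.8 under p65 WT and 78.6, 80.5 and 80.5 under p65 2CS. The vector libraries overlapped both other groups, and every p65 2CS library lay above every p65 WT library. ATF6 was called between the forms (0.16 ± 0.044, adjusted p = 0.0047) but not against vector, with log2 folds of -0.07 ± 0.045 (adjusted p = 0.26) for p65 WT and 0.09 ± 0.043 (adjusted p = 0.14) for p65 2CS.

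Among the chaperones and folding enzymes every call with p65 2CS was a fall. Of 10 such genes 6 were lower with p65 2CS than with p65 WT and 0 higher, against 17.9% and 13.4% of all tested genes. With p65 2CS 5 were lower than with vector and 0 higher, against 11.4% and 12.1%. With p65 WT 4 were higher than with vector and 0 lower, against 16.4% and 12.5%. HSPA5 (BiP; chromosome 9, 125234853 to 125241330, minus strand), the main chaperone of the ER and a brake on its sensors, had 481, 453 and 478 CPM in the vector libraries, 461, 461 and 468 under p65 WT and 419, 409.8 and 413 under p65 2CS. The p65 2CS libraries lay below all others, and those with p65 WT overlapped those with vector. HSPA5 was 1.14-fold lower with p65 2CS than with vector (-0.19 ± 0.026, adjusted p = 8.4e-07) and 1.12-fold lower than with p65 WT (-0.16 ± 0.027, adjusted p = 5.3e-06). The fold with p65 WT was -0.02 ± 0.027 (adjusted p = 0.56).

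HSP90B1 (GRP94), the HSP90 of the ER, followed HSPA5, at 722 ± 19.8 CPM with vector, 735 ± 13.7 under p65 WT and 632 ± 12.8 under p65 2CS. Its log2 fold was -0.19 ± 0.026 (adjusted p = 2.4e-07) against vector and -0.22 ± 0.026 (adjusted p = 5.2e-09) against p65 WT. The lectin chaperone CALR and the disulfide isomerases PDIA4 and PDIA6 were higher with p65 WT and lower with p65 2CS than with vector. CALR stood at 760.1 ± 6.42, 817 ± 7.10 and 717 ± 20.1 CPM in vector, p65 WT and p65 2CS libraries. PDIA4 stood at 208 ± 3.28, 241 ± 5.25 and 196 ± 11.1 CPM, and PDIA6 at 215 ± 4.78, 237 ± 3.18 and 198 ± 7.77 CPM. Between the forms the log2 folds were -0.19 ± 0.025 for CALR, -0.30 ± 0.034 for PDIA4 and -0.26 ± 0.032 for PDIA6. Against vector, the p65 2CS call of PDIA4 (-0.09 ± 0.033, adjusted p = 0.037) was lost without vector replicate 1 or 3 or p65 2CS replicate 8 or 9, with adjusted p of 0.094, 0.13, 0.36 and 0.057 respectively, and with the size factors of DESeq2 (RLE) or its Wald test (0.064 and 0.063). That of CALR (-0.08 ± 0.024) was lost without p65 2CS replicate 8 (adjusted p = 0.10).

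SDF2L1, a partner of the BiP cycle, was higher with p65 WT than with p65 2CS, at 35.7 ± 0.751 against 28.8 ± 1.31 CPM (-0.32 ± 0.065, adjusted p = 0.00014). Its call against vector (31.7 ± 1.68 CPM, 0.17 ± 0.064, adjusted p = 0.042 for p65 WT) was lost in 8 of 17 alternatives, including leaving out any vector or p65 WT library, with adjusted p up to 0.21. The remaining 4 were called in no comparison. These were the BiP co-chaperones DNAJB9, at 15.3, 13.8 and 13.3 CPM, and DNAJC3, at 40.7, 41.5 and 42.9 CPM, and the secreted stress proteins CRELD2 and MANF. CRELD2 stood at 45.1, 40.9 and 40.3 CPM and MANF at 40.6, 38.0 and 38.1 CPM. In 5 of 17 alternatives CRELD2 was called lower with p65 2CS than with vector, with adjusted p down to 0.012. It was called lower with p65 WT than with vector in 1 (0.034). The fitted log2 folds of these 4 lay between -0.21 and 0.07 in the 3 comparisons.

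Of 3 genes of ER-associated degradation 1 was called lower and 0 higher in each comparison. The shares lower over all tested genes were 12.5% with p65 WT, 11.4% with p65 2CS and 17.9% between the forms. Only the SEL1L fall, with p65 2CS, held in each of the 17 alternatives. SEL1L, the scaffold of the HRD1 ubiquitin ligase, fell from 73.5 ± 1.29 to 64.7 ± 2.28 CPM with p65 2CS (-0.19 ± 0.045, adjusted p = 0.0018), with 69.8 ± 2.25 CPM with p65 WT. HERPUD1, a membrane component of that machinery, was called lower with p65 WT (-0.18 ± 0.066, adjusted p = 0.042), at 29.9 ± 1.93 against 33.8 ± 1.83 CPM. This was the single fall of the ER chaperone arm in that comparison, and it was lost in 9 of 17 alternatives, including those that leave out replicate 2 or 3 of vector, or 4 or 6 of p65 WT, with adjusted p up to 0.19. EDEM1, which directs misfolded glycoproteins to degradation, was at 45.4 ± 0.265 CPM under p65 WT and 41.0 ± 3.40 under p65 2CS (-0.15 ± 0.061, adjusted p = 0.047), a call lost in 9 of 17 alternatives, including without vector replicate 2, any p65 WT library or p65 2CS replicate 8, with adjusted p up to 0.38.

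**Figure D4:**
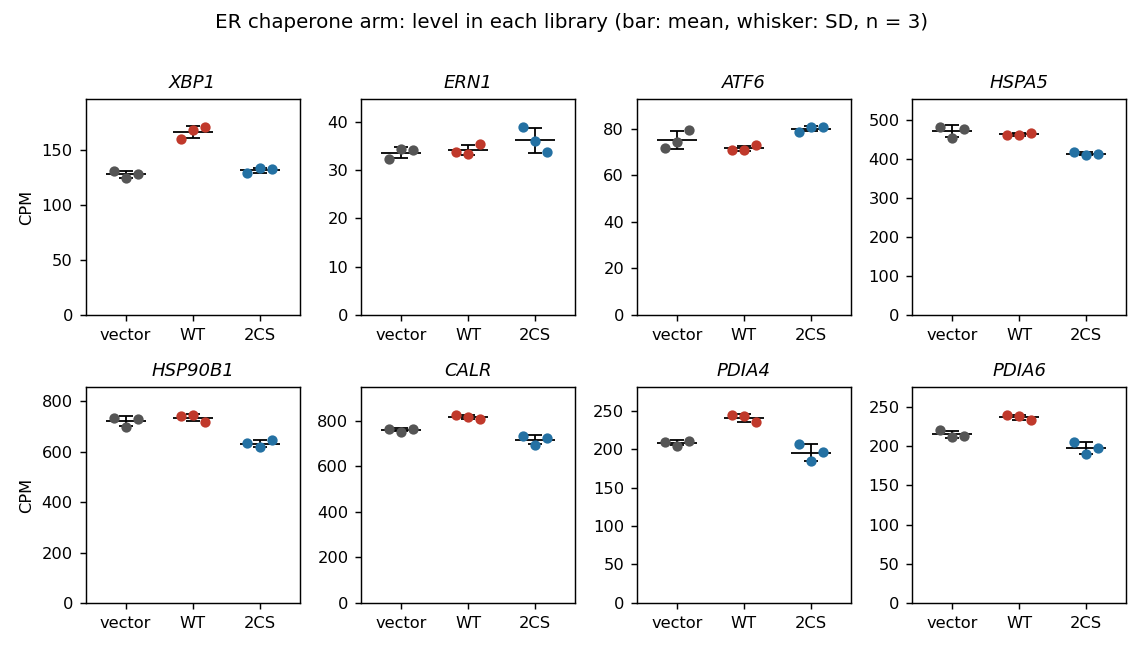
CPM in each of the 9 libraries for 8 genes of the ER chaperone arm, each axis starting at 0, with points for libraries, a bar for the group mean and whiskers for the SD. XBP1 is high in p65 WT libraries alone, and HSPA5 and HSP90B1 are low in p65 2CS libraries alone.

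Summed over the 16 genes, the ER chaperone arm took 2880 to 2968 CPM in vector libraries, 3059 to 3090 in those of p65 WT and 2635 to 2751 in those of p65 2CS, with no overlap between groups. Other genes of ER folding, translocation and degradation were mostly lower, where called, with p65 2CS. Of 42 listed 41 were tested, ERN2 being too low. With p65 WT 9 rose (21.95%) and 6 fell (14.6%), which is near the 16.4% and 12.5% of all tested genes. With p65 2CS 2 rose (4.88%) and 18 fell (43.9%), against 12.1% and 11.4%. Between the forms 1 was higher with p65 2CS (2.44%) and 21 lower (51.2%), against 13.4% and 17.9%, and the medians were 0.00062, -0.10 and -0.12 in these 3 comparisons. The disulfide isomerase PDIA5 rose with p65 WT from 17.5 to 27.7 CPM (0.66 ± 0.080, adjusted p = 7.7e-09), and was 1.48-fold lower with p65 2CS than with p65 WT (-0.57 ± 0.079, adjusted p = 2.1e-07). CREB3, a membrane-bound factor related to ATF6, rose from 29.3 to 45.0 CPM (0.61 ± 0.063, adjusted p = 1.5e-10) with p65 WT and to 35.9 CPM (0.29 ± 0.063, adjusted p = 0.00054) with p65 2CS. SIL1, the exchange factor of BiP, rose with p65 WT from 34.8 to 44.3 CPM (0.35 ± 0.060, adjusted p = 1.3e-05).

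The ER chaperone HYOU1 and the translocon subunit SEC61B were lower with p65 2CS than with p65 WT, with log2 folds of -0.39 ± 0.039 and -0.34 ± 0.057. The thioredoxin-like TXNDC5 and the degradation factor DERL3 were lower with p65 2CS than with vector. Their log2 folds were -0.34 ± 0.080 (adjusted p = 0.0015) and -0.31 ± 0.093 (adjusted p = 0.013). The DERL3 call was lost without vector replicate 2 (adjusted p = 0.060). The 2 rises with p65 2CS became 1 when any 1 of the vector or p65 2CS libraries was left out. With libraries scaled by their totals alone the 9 rises and 6 falls of p65 WT became 6 and 9. Leaving out any vector library lost the rises of SEC61B, P4HB and ATF6B. The falls of TXNDC5 and SSR1 were lost without vector replicate 1 or 2. Among the 21 lower between the forms, scaling by totals alone lost SELENOK, DERL1, SSR1, SIL1 and DNAJC10. SELENOK was also lost when any p65 WT or p65 2CS library was left out (adjusted p up to 0.15).

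Per kilobase of gene model (RPKM, from the deposited gene lengths), the 35 genes spanned a wide range with vector. CALR was highest at 280.1 ± 2.37 RPKM, followed by ATF4 at 177 ± 3.20, HSP90B1 at 154 ± 4.21 and HSPA5 at 120.5 ± 3.95. These neighbours in the order differed beyond their SDs. PPP1R15A was 11th with vector at 51.0 ± 2.09 RPKM, level with PDIA6 (52.5 ± 1.17) and PSAT1 (49.6 ± 2.41) within their SDs, and reached 103 ± 3.0 with p65 WT. Of the genes that fell, TRIB3 was at 9.34 ± 0.354 RPKM with vector, SLC7A11 at 2.84 ± 0.0815 and ASNS, the lowest, at 1.38 ± 0.0607.

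Some of these levels depend on how reads of overlapping gene models were assigned, which is not given in the sources used here. Of the exonic bases of ASNS 44.6% lie in exons of AC079781.5 on the same strand, so that its count may cover only part of its reads. On the opposite strand 31.6% of the exonic bases of DDIT3 overlap MARS and MBD6, and DDIT3 had 2024 counts over the 9 libraries against 41027 for MARS and 29629 for MBD6. For DDIT4 41.2% overlap DDIT4-AS1, which had 0 counts in these libraries, for MTHFD2 33.2% overlap SLC4A5 and AC006030.1, and for PDIA6 25.2% overlap ATP6V1C2. The exons of TRIB3, PPP1R15A, PPP1R15B, CEBPG, PSAT1, SLC3A2, XBP1 and HSPA5 overlap no other gene. Named pseudogene copies took at most 1.79% of the count of a member, in the case of SLC7A5.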

How the data were processed

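Poly-A RNA was sequenced from 9 libraries in 3 groups. The authors deposited raw read counts per gene, and the submitters' processing notes name HISAT2 2.0.5, an aligner. Library preparation is described in the labels both for directional and non-directional kits, while counting tool, strand setting and genome build were not given in the sources used here. All 58735 gene IDs and positions matched GENCODE 29 on GRCh38. Counts were tested with edgeR 4.0.16 (filterByExpr, TMM, quasi-likelihood F test, R 4.3.3) in 1 fit of the 9 libraries, and p-values were adjusted by Benjamini-Hochberg over 18195 genes at a threshold of 0.05. The standard error is the size of the log2 fold divided by the square root of F. CPM and RPKM were computed from the deposited counts and gene lengths. The code was tested on simulated counts.

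The members and lists were chosen with earlier results of these data known. Values per library are given for genes called with a log2 fold of at least 0.5 and for ATF4, DDIT3, XBP1, HSPA5, ERN1 and ATF6. In the other lists the 3 called genes of largest fold per comparison are named. Alternatives were other scalings and filters, DESeq2 1.42.0, limma-voom 3.58.1, fits of 2 groups, and each library left out.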

Additional observations from a re-analysis of the deposited data

How the results depend on the processing

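Over 17 alternatives none of the 66 called log2 folds of the 35 genes changed sign, while 8 of the 39 that were not called did (CRELD2, DNAJB9 and MANF between the forms, DNAJC3, EDEM1, ERN1 and HSP90B1 with p65 WT, SESN2 with p65 2CS). Of 1785 values 64 lost the call and 20 gained it. The single fall in the ER chaperone arm with p65 WT became 0 with the size factors of DESeq2 (RLE), with RELA left out before scaling, with no low-count filter, with the DESeq2 Wald test and with only the 2 groups fitted, and 5 where library totals alone set the scale. That scaling also took the rises of the ATF4 arm with p65 WT from 4 to 2, and its genes lower with p65 2CS than with p65 WT from 5 to 3. The cause was not tested. Leaving out 1 library at a time gave, for the ATF4 arm, 2 to 4 rises and 13 to 15 falls with p65 WT, 2 to 3 and 10 to 11 with p65 2CS, and 7 to 9 higher and 3 to 6 lower between the forms. For the ER chaperone arm it gave 4 to 5 rises and 0 to 1 falls with p65 WT, 0 rises and 4 to 8 falls with p65 2CS, and 1 higher and 7 to 8 lower between the forms. Low counts limit ASNS, CHAC1 and DDIT3, whose standard errors were the largest of the ATF4 arm. No paired analysis was possible because the groups share no replicate numbers.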
